A study of Mus musculus with 4 samples.

Results

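In mouse pachytene spermatocytes, 65 abundant autosomal genes had less RNA in Ddx4 homozygous knock-in cells, labelled KK, than in wild-type cells, labelled WT. They were chosen on the values described here, TPM, a transcript abundance that is scaled for length and sums to the same total in every library. A gene qualified if it was protein-coding in the annotation, lay on chromosomes 1 to 19, had at least 10 TPM in both WT libraries, and had a higher KK value of at most 0.65 times the lower WT value. Of 55364 genes in the tables, 20780 were autosomal and protein-coding, 6794 of these were abundant by that definition, and 70 (1.03%) met the ratio. Of 6 genes that were set aside by name (Ddx4, Kmt2d, Setd1b, Upf1, Tssk6 and Smcp), 5 met the ratio and abundance conditions, which left 65 members. Because the rule used the KK against WT difference, the differences below describe the members and carry no test.

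The study profiled RNA from pachytene spermatocytes of WT mice (2 libraries) and of mice with a homozygous Ddx4 knock-in (2 libraries). Both genotypes went through the same enzymatic digestion of the testis and the same separation by centrifugal elutriation. The labels give no strain, age, construct or number of animals, and do not state whether replicate libraries are from different animals, so p-values measure only the spread between these libraries. Ddx4 itself, a germ cell DEAD-box RNA helicase, stood at 265 and 273 TPM in WT and 54.4 and 52.5 TPM in KK, which separates the genotypes as the labels do.

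Pachytene spermatocytes are meiotic cells in which homologous chromosomes are fully paired and transcription of the autosomes is high. Many mRNAs made at this stage serve the later, haploid steps of sperm formation and are stored or turned over under the control of RNA-binding proteins. DDX4 is a core protein of germ granules, the membrane-less RNA and protein bodies of germ cells that take part in small RNA production and mRNA regulation. The 65 members do not belong to one pathway, and 54 of them were placed by known function into 6 groups that order the account below.

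Library totals ranged from 17970207 to 19438570 estimated counts. As a check of the labelled cell type, 12 pachytene spermatocyte markers summed to 16847 and 16695 TPM in WT and to 15958 and 15799.7 TPM in KK. Of these 12 markers 7 were lower in both KK libraries than in both WT libraries, and 1 was higher in both. Markers of other cells were also present. The 19 Leydig cell markers summed to 961 and 996 TPM in WT against 2858 and 2933 TPM in KK, and 16 of the 19 were higher in both KK libraries than in both WT libraries. Of 17 round spermatid markers 13 were higher in this way and 3, the member Spem1 among them, were lower, with sums of 19217 and 19005 TPM in WT and of 18348 and 17662 TPM in KK. Of 24 Sertoli cell markers 15 were lower without overlap and 3 higher, with sums of 261 and 276 TPM in WT and of 237 and 249.95 TPM in KK, and Inhba was at 0 in all libraries. Of 28 spermatogonial markers 20 were higher and 2 lower, although their sum was 1659 and 1703 TPM in WT and 1535 and 1590 TPM in KK. Of 16 macrophage and immune markers 9 were higher and 2 lower, with sums of 167 and 166 TPM in WT and of 234 and 215 TPM in KK. Peritubular and endothelial markers were scarce, with sums of 10.6 and 9.72 TPM in WT and of 15.8 and 15.7 TPM in KK. Of these 18 markers 7 were higher and 2 lower. No Leydig marker and no round spermatid marker was at 0 in all libraries. As background to these counts, 46.5% of 6794 abundant autosomal protein-coding genes had both KK values under both WT values. Over all 16571 genes tested on counts with edgeR, 21.7% were lower and 22.0% higher in KK. The share of all genes that were higher without overlap was not computed, so the marker counts are descriptions. The part of these other cells in the members' lower values was not tested, and in bulk RNA fewer cells of a type and less RNA per cell cannot be told apart.

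Together the members held 0.511% and 0.517% of all TPM in WT, against 0.300% and 0.295% in KK. Their summed level was 5112 and 5171 TPM in WT and 2997 and 2951 TPM in KK. By the genotype means, the members were 1.58-fold to 2.47-fold lower in KK, with a median of 1.72-fold, and 9 of them were at least 2-fold lower. Within a genotype, the members' range between replicates had a median of 5.58% of the mean in WT and 3.47% in KK, and at most 22.6% and 23.5%. The rule sets the higher KK value against the lower WT value and so favours genes with close replicates. These ranges therefore describe the members only and are no measure of how well the libraries repeat. The rule lets no member overlap between genotypes. Among all 6794 abundant genes, 46.5% had both KK values under both WT values, so lack of overlap alone was common. The opposite pattern was more frequent than the one chosen here: 236 abundant genes (3.47%) had a lower KK value at least 1.54 times their higher WT value.

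**Figure D1:**
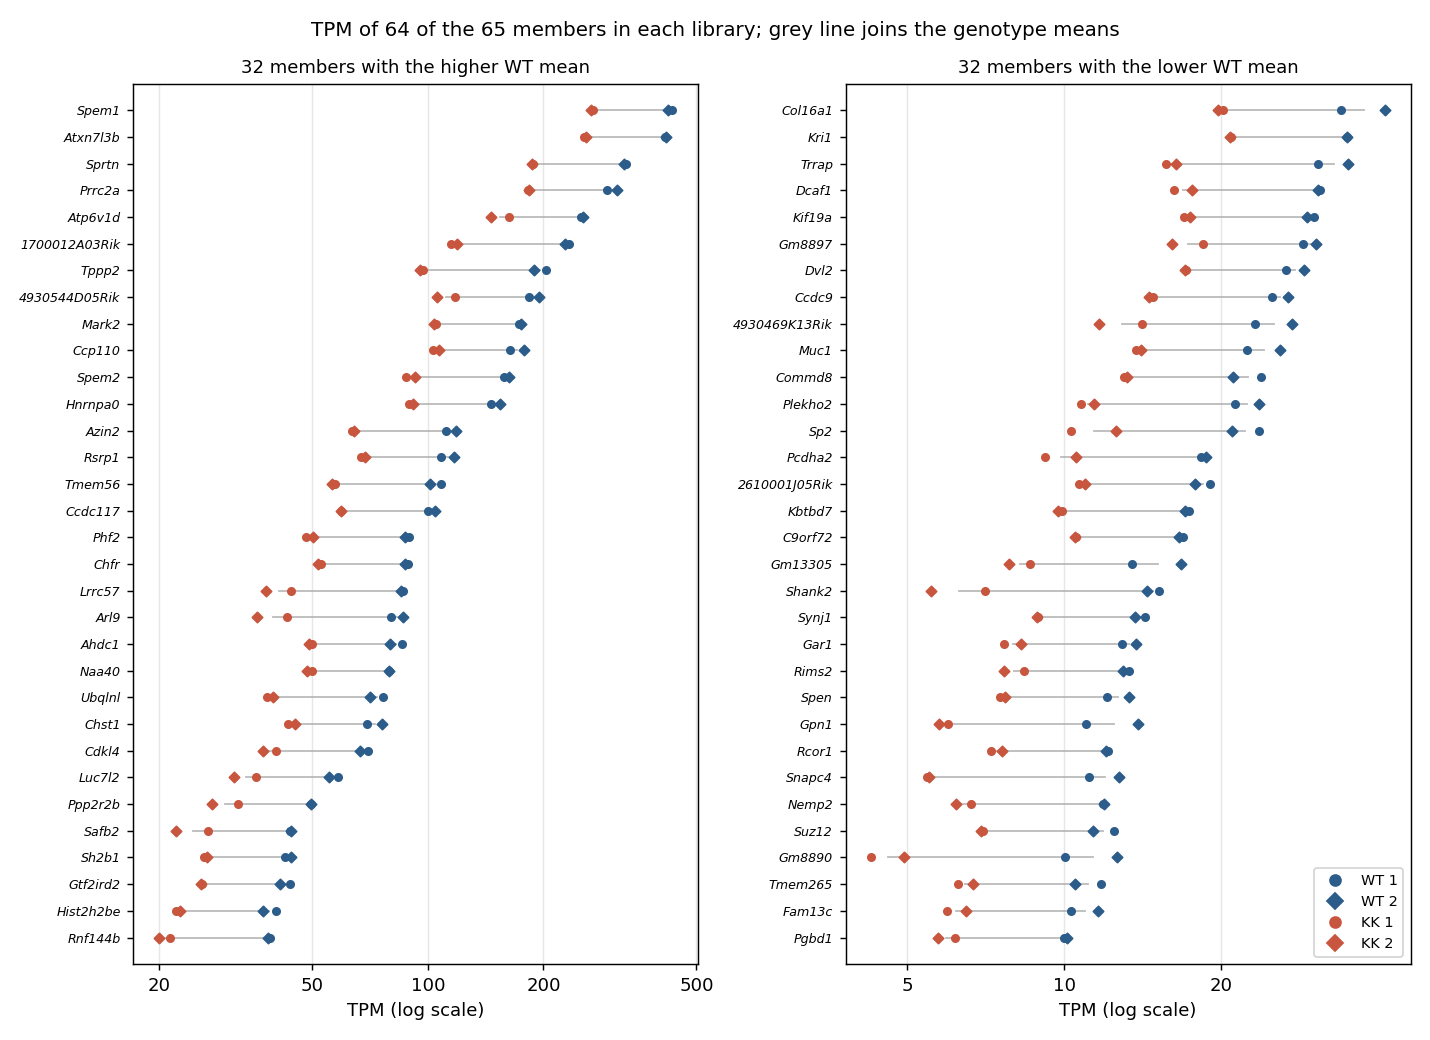
Level of 64 of the 65 members in TPM (log axis) in the 2 WT libraries (blue) and the 2 KK libraries (red), with circles for replicate 1 and diamonds for replicate 2 and a grey line between the genotype means. Mean WT levels run from 10.1 to 427 TPM, and the gap between colours is of similar width over the whole range, between 1.58-fold and 2.47-fold.

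The threshold cuts through a continuous range. Just inside it, the higher KK value was 0.6498 times the lower WT value for Atp6v1d, 0.6499 times for Synj1 and 0.65 times for Ccp110. Just outside lay Bcl7b at 0.651, Chd3 at 0.6515 and Cep85 at 0.652. Chd3, a chromatin remodelling ATPase, had 33.8 and 33.6 TPM in WT and 21.9 and 20.8 TPM in KK, a separation of the same kind as that of the members.

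**Figure D2:**
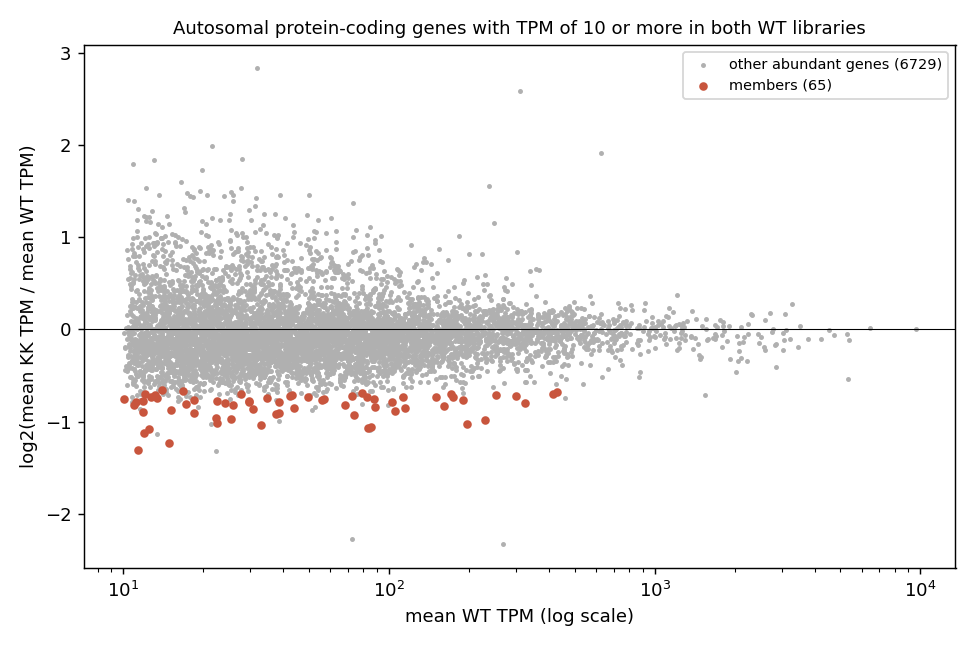
Each of the 6794 abundant autosomal protein-coding genes by its mean WT level in TPM (log axis) and by the log2 ratio of mean KK to mean WT TPM, with the 65 members in red and the others in grey. The members spread along the lower edge of the cloud, at log2 ratios from -1.30 to -0.66, while the other genes have a median of -0.07; the rule put them there.

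A separate measure of the same contrast came from estimated counts, fitted by edgeR's quasi-likelihood test over 16571 genes with Benjamini-Hochberg adjustment. In that fit 3589 genes (21.7%) were lower and 3648 (22.0%) higher in KK. Of the abundant autosomal protein-coding genes 37.8% were lower and 18.8% higher, and of the 65 members 62 were lower, a count that follows from the choice of members and from which nothing is read. The members' median log2 fold change of counts was -0.76, beside 0.0033 for all genes tested and -0.09 for the abundant genes. With library totals alone as scaling, the median of all genes tested moved to 0.09 and that of the members to -0.67. On the count scale 5 members were below -1, 54 lay between -1 and -0.5, and 6 lay above -0.5.

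Among the members with roles in germ cells and microtubules, the most abundant was Spem1, which encodes a spermatid protein needed for removal of cytoplasm from the sperm neck. Its level was 433 and 421 TPM in WT and 269.7 and 265 TPM in KK. Spem1 and Spem2 are related genes next to each other on chromosome 11 (Spem1 at chr11:69820876-69822180 and Spem2 at chr11:69816566-69818465, GRCm38, both on the minus strand), 2.4 kb apart with no protein-coding gene between them. Spem2 stood at 158 and 163 TPM in WT and 87.5 and 92.4 TPM in KK. The fold was 1.60-fold for Spem1 and 1.78-fold for Spem2, with a log2 fold change of -0.67 (SE 0.039) and a log2 fold change of -0.83 (SE 0.045) on the count scale. The bases before the start of these neighbours are shown because the 2 genes lie close to each other. Those of a second close pair, Naa40 and Mark2, are shown beside them.
Spem1, chr11:69822181-69822415, minus strand: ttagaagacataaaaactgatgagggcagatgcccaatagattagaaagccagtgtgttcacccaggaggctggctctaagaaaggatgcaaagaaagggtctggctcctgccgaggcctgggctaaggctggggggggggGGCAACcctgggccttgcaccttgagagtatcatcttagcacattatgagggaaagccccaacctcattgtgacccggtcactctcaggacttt
Spem2, chr11:69818466-69818713, minus strand: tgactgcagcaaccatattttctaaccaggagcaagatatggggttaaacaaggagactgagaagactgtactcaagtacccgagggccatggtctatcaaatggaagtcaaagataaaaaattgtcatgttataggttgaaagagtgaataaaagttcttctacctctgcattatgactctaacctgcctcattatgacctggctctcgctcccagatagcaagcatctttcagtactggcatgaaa
Naa40, chr19:7241223-7241472, minus strand: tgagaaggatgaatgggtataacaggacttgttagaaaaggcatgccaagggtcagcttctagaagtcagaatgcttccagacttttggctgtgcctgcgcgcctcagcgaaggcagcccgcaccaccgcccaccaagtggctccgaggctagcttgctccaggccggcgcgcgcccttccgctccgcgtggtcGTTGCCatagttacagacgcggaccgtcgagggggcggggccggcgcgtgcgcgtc
Mark2, chr19:7341861-7342110, minus strand: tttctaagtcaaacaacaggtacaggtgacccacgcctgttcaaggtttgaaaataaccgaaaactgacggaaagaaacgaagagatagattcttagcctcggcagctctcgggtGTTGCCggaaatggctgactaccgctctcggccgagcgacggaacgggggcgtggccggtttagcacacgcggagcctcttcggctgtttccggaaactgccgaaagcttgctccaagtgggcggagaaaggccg
The sequences are from RefSeq on GRCm38.p6, 5′ to 3′ on the gene's strand, end where the annotated gene or the RefSeq start begins, and carry in capitals each match to GTTGCC on either strand (part of the site bound by RFX transcription factors). Naa40 and Mark2 were taken from stretches kept for printing because they hold GTTGCC, so their matches were a condition of being shown. A second motif searched, AACNGT (MYB), had no match in these 4. Naa40 and Mark2 lie 34.2 kb apart on chromosome 19 with 1 protein-coding gene between them. The Spem1 and Spem2 stretches hold 2 CpG each, against 24 for Naa40 and 22 for Mark2, so the pairs differ in CpG count. Their GC content was 53.19% for Spem1, 41.53% for Spem2, 63.2% for Naa40 and 55.6% for Mark2.

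Tppp2 encodes a tubulin-binding protein of the TPPP family (chr14:51918425-51920700). It had 203 and 189 TPM in WT and 96.98 and 95.5 TPM in KK. This was 2.04-fold lower by the means, with a log2 fold change of -1.02 (SE 0.078) on the count scale, and its single detected isoform, Tppp2-201, carried all counts. Azin2 encodes an antizyme inhibitor, a regulator of polyamine synthesis that is abundant in testis. Its values were 112 and 118 TPM in WT and 63.4 and 64.2 TPM in KK. The isoform Azin2-202 was estimated at 127 and 73.3 counts in WT and at 0 in both KK libraries, while Azin2-201, the leading isoform, went from 1681 and 1831 counts to 1185 and 1124. Ccp110, whose protein caps the distal end of centrioles, was among the members closest to the threshold. It stood at 164 and 177 TPM in WT and 103 and 107 TPM in KK. Kif19a, a kinesin that shortens microtubules at the tips of cilia, had 30.1 and 29.2 TPM in WT and 16.97 and 17.5 TPM in KK. Nemp2 encodes an inner nuclear membrane protein and was the least abundant of this group, at 11.9 and 11.9 TPM in WT and 6.62 and 6.21 TPM in KK. None of this was assigned to an isoform annotated as coding: the retained-intron isoform Nemp2-208 held 61.0% and 54.0% of it in WT and 50.8% and 63.2% in KK, and targets of nonsense-mediated decay held most of the rest.

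The chromatin and transcription group was the largest, with 14 members whose folds ran from 1.61 to 2.18 (median 1.70). Their WT means ranged from 11.9 TPM for Suz12 to 415 TPM for Atxn7l3b. Trrap encodes a large scaffold of histone acetyltransferase complexes (chr5:144767732-144859778). Its level was 30.7 and 35.1 TPM in WT and 15.7 and 16.4 TPM in KK. Suz12 is a core subunit of Polycomb repressive complex 2, which methylates lysine 27 of histone H3. It had 12.4 and 11.3 TPM in WT and 6.99 and 6.92 TPM in KK. For Phf2, a histone demethylase with a PHD finger, the values were 89.3 and 87.2 TPM in WT and 48.3 and 50.2 TPM in KK. That both KK values of these 3 genes lie under both WT values is required of every member by the rule. Rcor1, the CoREST corepressor, stood at 12.1 and 12.04 TPM in WT and 7.24 and 7.59 TPM in KK. Its counts gave a log2 fold change of -0.76 (SE 0.085).

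Atxn7l3b was the second most abundant member and is a single-exon gene whose product binds a subunit of the SAGA deubiquitinase module. It had 414 and 417 TPM in WT and 255 and 258 TPM in KK. Naa40, the N-terminal acetyltransferase of histones H4 and H2A, had 79.3 and 79.3 TPM in WT and 49.98 and 48.5 TPM in KK. The histone gene Hist2h2be, which encodes a form of H2B, had 40.2 and 37.2 TPM in WT and 22.1 and 22.6 TPM in KK. Histone genes are a family of near copies, and the estimated counts of Hist2h2be were whole numbers in all 4 libraries. Sp2, a zinc finger transcription factor, stood at 23.6 and 20.96 TPM in WT and 10.3 and 12.6 TPM in KK. Its KK libraries differed in isoform: Sp2-202 was estimated at 47.0 counts in the first and 260 counts in the second, against 472 and 308.5 in WT.

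Other transcriptional members were Snapc4, the DNA-binding subunit of the complex that starts small nuclear RNA genes, and Gpn1, a GTPase that takes part in assembly and nuclear import of RNA polymerase II. Spen, a large corepressor that acts in X inactivation in female cells, had 12.1 and 13.3 TPM in WT and 7.55 and 7.72 TPM in KK. Ahdc1, an AT-hook DNA-binding protein gene, had 85.7 and 79.5 TPM in WT and 50.1 and 49.2 TPM in KK. The TFII-I family gene Gtf2ird2 had 43.7 and 41.3 TPM in WT and 25.9 and 25.6 TPM in KK. In Spen, Ahdc1 and Gtf2ird2 the fold was between 1.65 and 1.66, near the edge that the rule sets.

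RNA-binding and RNA-processing genes made up 8 members, with folds in a narrow band from 1.65 to 1.80. Prrc2a, an RNA-binding protein gene, was the most abundant, at 293 and 310.0 TPM in WT and 182 and 183 TPM in KK. Hnrnpa0, a single-exon gene for an hnRNP protein, had 146 and 154 TPM in WT and 89.2 and 91.7 TPM in KK. For Rsrp1, an arginine- and serine-rich protein gene, the values were 108 and 117 TPM in WT and 66.95 and 68.8 TPM in KK. Its leading isoform Rsrp1-201 held 72.5% and 73.3% of the gene's counts in WT and 64.8% and 56.1% in KK, and its retained-intron isoform Rsrp1-204 stood at 515 and 567 counts in WT and at 494.5 and 527 in KK. Luc7l2, a component associated with the U1 snRNP, stood at 58.2 and 55.5 TPM in WT and 35.8 and 31.4 TPM in KK. Its isoforms differed: Luc7l2-201 was at 7.77 and 7.76 TPM in WT and at 8.45 and 8.47 TPM in KK, and Luc7l2-207 was at 18.2 and 16.3 TPM in WT and at 6.35 and 5.41 TPM in KK. Safb2, a scaffold attachment factor that binds RNA, had 43.9 and 44.2 TPM in WT and 26.8 and 22.1 TPM in KK. Kri1, a factor in ribosomal RNA processing, had 34.9 and 34.9 TPM in WT and 20.9 and 20.8 TPM in KK. Gar1, a core protein of H/ACA snoRNPs, was the least abundant of the group, at 12.9 and 13.7 TPM in WT and 7.67 and 8.27 TPM in KK.

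Of the 7 ubiquitin and genome maintenance members, Sprtn was the most abundant. SPRTN is a protease that clears proteins crosslinked to DNA. Its level was 328 and 324 TPM in WT and 188 and 186 TPM in KK. The counts gave a log2 fold change of -0.80 (SE 0.034), and the isoform Sprtn-201 held between 99.47% and 99.78% of the TPM in each library. Chfr, a ubiquitin ligase of an early mitotic checkpoint, had 88.6 and 87.1 TPM in WT and 52.7 and 51.8 TPM in KK. Protein-coding isoforms of Chfr held 20.7% and 17.8% of its TPM in WT and 20.5% and 17.9% in KK. The ubiquilin-like gene Ubqlnl (chr7:104148259-104150556), which has a single exon, had 76.7 and 70.9 TPM in WT and 38.2 and 39.6 TPM in KK. It was 1.90-fold lower, with a log2 fold change of -0.92 (SE 0.054) on the count scale. Rnf144b, a ubiquitin ligase of the RBR type, stood at 38.8 and 38.4 TPM in WT and 21.3 and 19.96 TPM in KK. Kbtbd7, an adaptor of the CUL3 ubiquitin ligase, had 17.4 and 17.04 TPM in WT and 9.90 and 9.75 TPM in KK.

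Signalling was represented by 6 members. Mark2, a kinase that phosphorylates microtubule-associated proteins, was the most abundant of them (chr19:7275396-7341860). It had 173 and 174 TPM in WT and 105 and 103 TPM in KK. An antisense gene, Gm17227, overlaps Mark2 at 72.9 and 57.4 TPM in WT and 67.1 and 66.3 TPM in KK, and the library kit does not mark strand, so reads of the overlapping stretch cannot be told apart. The cyclin-dependent kinase-like gene Cdkl4 had 69.8 and 66.4 TPM in WT and 40.2 and 37.2 TPM in KK. Ppp2r2b, a regulatory B subunit of the phosphatase PP2A, had 49.6 and 49.6 TPM in WT and 32.0 and 27.5 TPM in KK. For the Wnt pathway gene Dvl2 the values were 26.6 and 28.8 TPM in WT and 17.1 and 17.04 TPM in KK. Sh2b1, an adaptor of receptor tyrosine kinases, stood at 42.4 and 44.1 TPM in WT and 26.1 and 26.6 TPM in KK. Plekho2, a gene for a protein with a pleckstrin homology domain, was the furthest down of the 6, at 21.2 and 23.7 TPM in WT and 10.8 and 11.4 TPM in KK.

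Membrane, vesicle and cell surface genes numbered 12, with folds from 1.58 to 2.35. Atp6v1d encodes a stalk subunit of the vacuolar proton pump. Its level was 249.9 and 254 TPM in WT and 162 and 146 TPM in KK. The retained-intron isoform Atp6v1d-202 held 76.6% and 75.2% of the gene's TPM in WT and 77.7% and 76.6% in KK, so most of this TPM was not assigned to the coding isoform, Atp6v1d-201. Arl9, an ARF-like GTPase gene, was among the most reduced. It had 80.1 and 86.2 TPM in WT and 43.1 and 35.9 TPM in KK. Its counts gave a log2 fold change of -1.06 (SE 0.14). Tmem56, a transmembrane protein gene, had 108 and 102 TPM in WT and 57.4 and 56.4 TPM in KK. Chst1, a sulfotransferase of keratan sulfate, had 69.5 and 76.2 TPM in WT and 43.2 and 45.1 TPM in KK.

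Several genes of this group are best known from neurons or epithelia. Shank2, a scaffold of the postsynaptic density, stood at 15.2 and 14.4 TPM in WT and 7.04 and 5.56 TPM in KK. The processed transcript Shank2-204, of 641 bases, held 90.6% and 90.8% of that TPM in WT and 86.0% and 85.4% in KK, whereas the coding isoform Shank2-205 stood at 1.14 and 1.33 TPM in WT and 0.86 and 0.50 TPM in KK. Synj1, a phosphoinositide phosphatase of synaptic vesicles, had 14.3 and 13.7 TPM in WT and 8.91 and 8.87 TPM in KK. Rims2, an active zone protein gene, had 13.3 and 12.96 TPM in WT and 8.38 and 7.66 TPM in KK. The clustered protocadherin gene Pcdha2 had 18.3 and 18.7 TPM in WT and 9.21 and 10.6 TPM in KK, and since the genes of its cluster share 3′ exons, this value depends on how reads were divided between them. Col16a1, a minor fibrillar-associated collagen gene, had 34.05 and 41.2 TPM in WT and 20.2 and 19.7 TPM in KK. Muc1, a membrane mucin gene, had 22.4 and 25.9 TPM in WT and 13.8 and 14.03 TPM in KK. C9orf72, whose protein acts in autophagy and membrane traffic, had 16.9 and 16.6 TPM in WT and 10.5 and 10.5 TPM in KK. Its counts gave a log2 fold change of -0.45 (SE 0.097), less than its log2 TPM ratio of -0.67.

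Outside these groups, Lrrc57, a leucine-rich repeat protein gene, had 86.1 and 84.96 TPM in WT and 44.2 and 37.9 TPM in KK. It was 2.08-fold lower, with a log2 fold change of -1.04 (SE 0.084) on the count scale. Ccdc117 had 100.4 and 104 TPM in WT and 59.5 and 59.4 TPM in KK. The group also held 7 genes with provisional symbols. The lowest KK to WT ratio of all members belonged to one of them, Gm8890, at 10.1 and 12.6 TPM in WT and 4.27 and 4.93 TPM in KK. Gm8890 and Gm8897 lie 155.9 kb apart on chromosome 5, and their estimated counts are not whole numbers (56.9 and 76.3 in WT and 27.9 and 29.2 in KK for Gm8890), so reads may have been divided between near copies and both values are uncertain.

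TPM divides counts by the effective length of the isoforms to which reads were assigned, so it can move when reads shift between short and long isoforms. In 14 of the 65 members (21.5%) the mean effective length was at least 10% longer in KK, and in 0 it was at least 10% shorter. Among the other 6729 abundant genes the shares were 3.49% and 7.48%. A longer effective length lowers TPM and so helps a gene meet the rule, and the difference in these shares is therefore no independent result. For 3 members the edgeR call on counts was missing: Dcaf1, Gpn1 and the provisional 4930469K13Rik, which were singled out after their values were seen.

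Dcaf1 encodes a substrate receptor of the CUL4 ubiquitin ligase (chr9:106821874-106880992). Its TPM was 31.01 and 30.7 TPM in WT and 16.2 and 17.6 TPM in KK. Its counts overlapped, at 1174 and 1246 in WT and 1214 and 1209 in KK, and the fitted log2 fold change was -0.08 (SE 0.064). The isoform Dcaf1-204, annotated at 275 bases, had 2 counts in each WT library, which alone gave 13.2 and 12.9 TPM, and 0 counts in KK. The full-length Dcaf1-201 stood at 14.1 and 12.5 TPM in WT and at 12.1 and 13.6 TPM in KK. Most of the lower TPM of Dcaf1 thus sat in 4 counts of a very short isoform.

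Gpn1 was a second such case (chr5:31494741-31512904). Its TPM was 11.04 and 13.8 TPM in WT and 6.0 and 5.76 TPM in KK. Its counts were 232 and 238 in WT and 253 and 201 in KK, with a log2 fold change of -0.14 (SE 0.12). The coding isoform Gpn1-201 was level, at 5.19 and 4.95 TPM in WT and 5.55 and 4.75 TPM in KK. The retained-intron isoform Gpn1-205 went from 20.2 and 26.9 counts to 2.10 and 4.49 counts. In Snapc4, the processed transcript Snapc4-207 went from 34.6 and 48.3 counts to 11.5 and 4.76 counts, and the coding Snapc4-201 from 272 and 316.5 to 225 and 273. Snapc4 TPM was 11.2 and 12.7 TPM in WT and 5.45 and 5.52 TPM in KK, and the counts gave a log2 fold change of -0.48 (SE 0.11), less than the log2 TPM ratio of -1.12. The gene 4930469K13Rik had 23.2 and 27.4 TPM in WT and 14.1 and 11.7 TPM in KK, of which an isoform of 243 bases with 0.39 and 1.00 counts made up 5.56 and 14.9 TPM in WT.

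**Figure D3:**
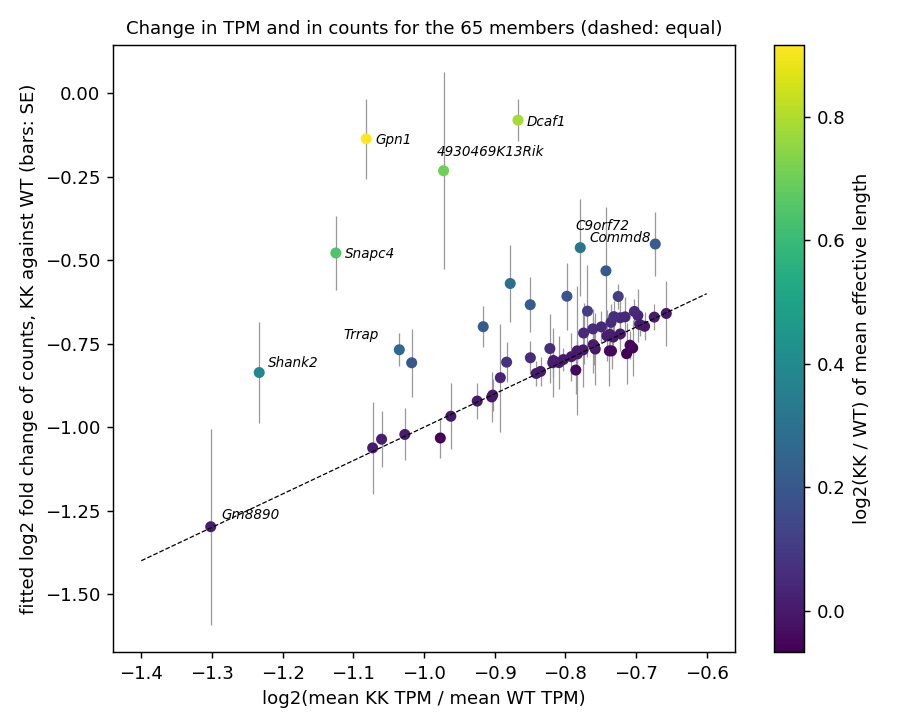
For each of the 65 members, the log2 ratio of mean KK to mean WT TPM (horizontal) against the fitted log2 fold change of counts with its SE (vertical), coloured by the log2 ratio of effective length; the dashed line marks equal values. Most members lie on the line, while Gpn1, Dcaf1, 4930469K13Rik and Snapc4 lie far above it and have the longest gain in effective length.

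Trrap combined both kinds of change. Its processed transcript Trrap-209 went from 14.5 and 18.6 TPM to 5.64 and 7.96 TPM, and the full-length Trrap-203, of 12479 bases, from 940 and 1184 counts to 700.1 and 499. The counts of the whole gene gave a log2 fold change of -0.77 (SE 0.050), beside a log2 TPM ratio of -1.03. In 53 of the 65 members the isoform with the highest TPM was annotated as protein-coding, in 5 as a processed transcript, in 3 as a retained intron and in 2 as a target of nonsense-mediated decay, and in 2 (Ppp2r2b and Pgbd1) it was absent from the annotation release used. Summed over members, protein-coding isoforms held 4322 and 4371 TPM in WT and 2529 and 2520 TPM in KK, and retained-intron isoforms held 413 and 428 TPM in WT and 251 and 229 TPM in KK.

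**Figure D4:**
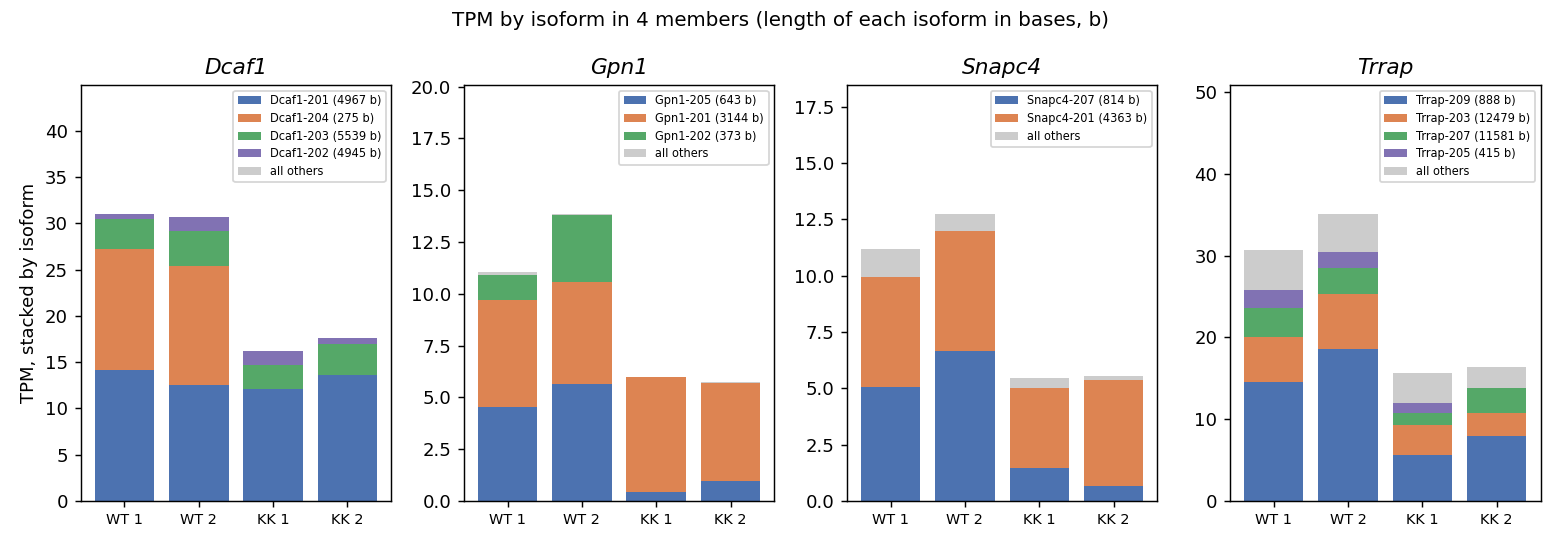
TPM of Dcaf1, Gpn1, Snapc4 and Trrap in each library, stacked by isoform with the annotated length in bases (b). The 275-base isoform of Dcaf1, the 643-base isoform of Gpn1 and the 888-base isoform of Trrap make up most of the gap between WT and KK in their genes.

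The share of a gene's counts held by its leading isoform bears on TPM, and so on the rule, through effective length, and the members' results on it are given as counts only. It was tested with limma on log-ratios over 8375 genes. With Benjamini-Hochberg adjustment 5 genes (0.0597%) were called, and of the 46 members that could be tested 0 were called. At an unadjusted p under 0.05 there were 3 members (Gpn1, Azin2 and Rsrp1) and 818 genes in all (9.77%). On simulated data this test recovered 0.333% of genes whose isoform odds changed 2-fold and 6.67% at 4-fold. Unchanged genes made up 25% of its calls there, above the limit of 0.05 that was set. Most changes of that size were thus not detectable at this depth, and the test did not hold its error rate. Nothing is read from its calls, and the isoform values above are descriptions.

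Relatives of the members, such as partners in a complex and paralogs, were chosen for their relation to a member and were tested in the edgeR fit over all genes. On simulated data unchanged genes made up 7.02% of the calls of this test, above the limit of 0.05. Of 56 relatives in 16 families, 18 were lower in KK at an adjusted p under 0.05, 13 were higher and 25 were not called, and their median log2 fold change was -0.07. As background, 21.7% of all genes tested were lower and 22.0% higher, and 37.8% of the abundant genes were lower and 18.8% higher, so these counts say nothing particular to relatives of members. In the SAFB family both relatives of Safb2 fell. Safb went from 76.7 and 80.8 TPM to 55.7 and 52.8 TPM (log2 fold change of counts -0.57, SE 0.051, edgeR adjusted p = 2.38e-10). Sltm had -0.40 (SE 0.041, edgeR adjusted p = 3.92e-09). Among the LUC7-like genes Luc7l3 fell by 0.43 on the log2 scale (SE 0.090, edgeR adjusted p = 0.000233), and Luc7l was at -0.23 (SE 0.098, edgeR adjusted p = 0.0627). Prrc2c, a relative of Prrc2a, fell by 0.45 on the log2 scale (SE 0.079, edgeR adjusted p = 3.07e-05), whereas Prrc2b, which stood at 0.52 and 0.64 TPM in WT and 1.46 and 0.63 TPM in KK, rose by 0.80 (SE 0.26, edgeR adjusted p = 0.0142).

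Chromatin complexes that contain a member were mixed. Of the partners of Suz12, the methyltransferase genes Ezh1 and Ezh2 were lower, with -0.43 (SE 0.096, edgeR adjusted p = 0.000574) and -0.17 (SE 0.061, edgeR adjusted p = 0.028). Eed, the third core subunit, was at 33.5 and 32.1 TPM in WT and at 32.2 and 31.1 TPM in KK and was not called (edgeR adjusted p = 0.243). Kdm1a, the demethylase that works with Rcor1, fell by 0.28 on the log2 scale (SE 0.041, edgeR adjusted p = 2.19e-06), and so did its CoREST paralog Rcor3, by 0.33 (SE 0.039, edgeR adjusted p = 4.88e-08). The other CoREST paralog, Rcor2, was scarce, at 0.73 and 0.93 TPM in WT and 2.13 and 1.92 TPM in KK, and rose by 1.07 (SE 0.29, edgeR adjusted p = 0.00376). Of the acetyltransferase genes whose products work with TRRAP, Kat5 fell by 0.24 (SE 0.041, edgeR adjusted p = 2.76e-05), Kat2b rose by 1.03 (SE 0.11, edgeR adjusted p = 1.75e-08) and Kat2a was at -0.05 (SE 0.069, edgeR adjusted p = 0.576). Other genes of these complexes were mostly lower. Ep400 was at -0.25 (SE 0.036), Supt20 at -0.19 (SE 0.034) and Tada1 at -0.32 (SE 0.079), all called lower, while Atxn7l3 was at 0.18 (SE 0.075) and not called. The 4 other SNAP complex genes were not called, with edgeR adjusted p from 0.0905 for Snapc2 to 0.953 for Snapc1.

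Other families held relatives that moved the other way from the member, beside some that did not. Ubqln5, a testis relative of Ubqlnl, rose by 0.48 on the log2 scale (SE 0.097, edgeR adjusted p = 0.000203). Mark3 rose by 0.25 (SE 0.095, edgeR adjusted p = 0.0324), while Mark1, at 2.63 and 1.92 TPM in WT and 1.36 and 1.54 TPM in KK, fell by 0.64 (SE 0.19, edgeR adjusted p = 0.00734). Ppp2r2d rose by 0.18 (SE 0.046, edgeR adjusted p = 0.00251). Of the other cytosolic subunits of the proton pump, Atp6v1e2, a testis form, rose from 53.8 and 52.2 TPM to 98.2 and 93.0 TPM (log2 fold change of counts 0.86, SE 0.083, edgeR adjusted p = 1.42e-09). Atp6v1h fell by 0.21 (SE 0.046, edgeR adjusted p = 0.000514), and Atp6v1a, a catalytic subunit, was at -0.08 (SE 0.041, edgeR adjusted p = 0.113). Among the polyamine regulators that work with Azin2, the spermatid antizyme Oaz3 fell by 0.45 (SE 0.036, edgeR adjusted p = 3.11e-11), Azin1 fell by 0.37 (SE 0.048, edgeR adjusted p = 2.68e-07), and Odc1, the enzyme itself, rose by 0.14 (SE 0.035, edgeR adjusted p = 0.00146).

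**Figure D5:**
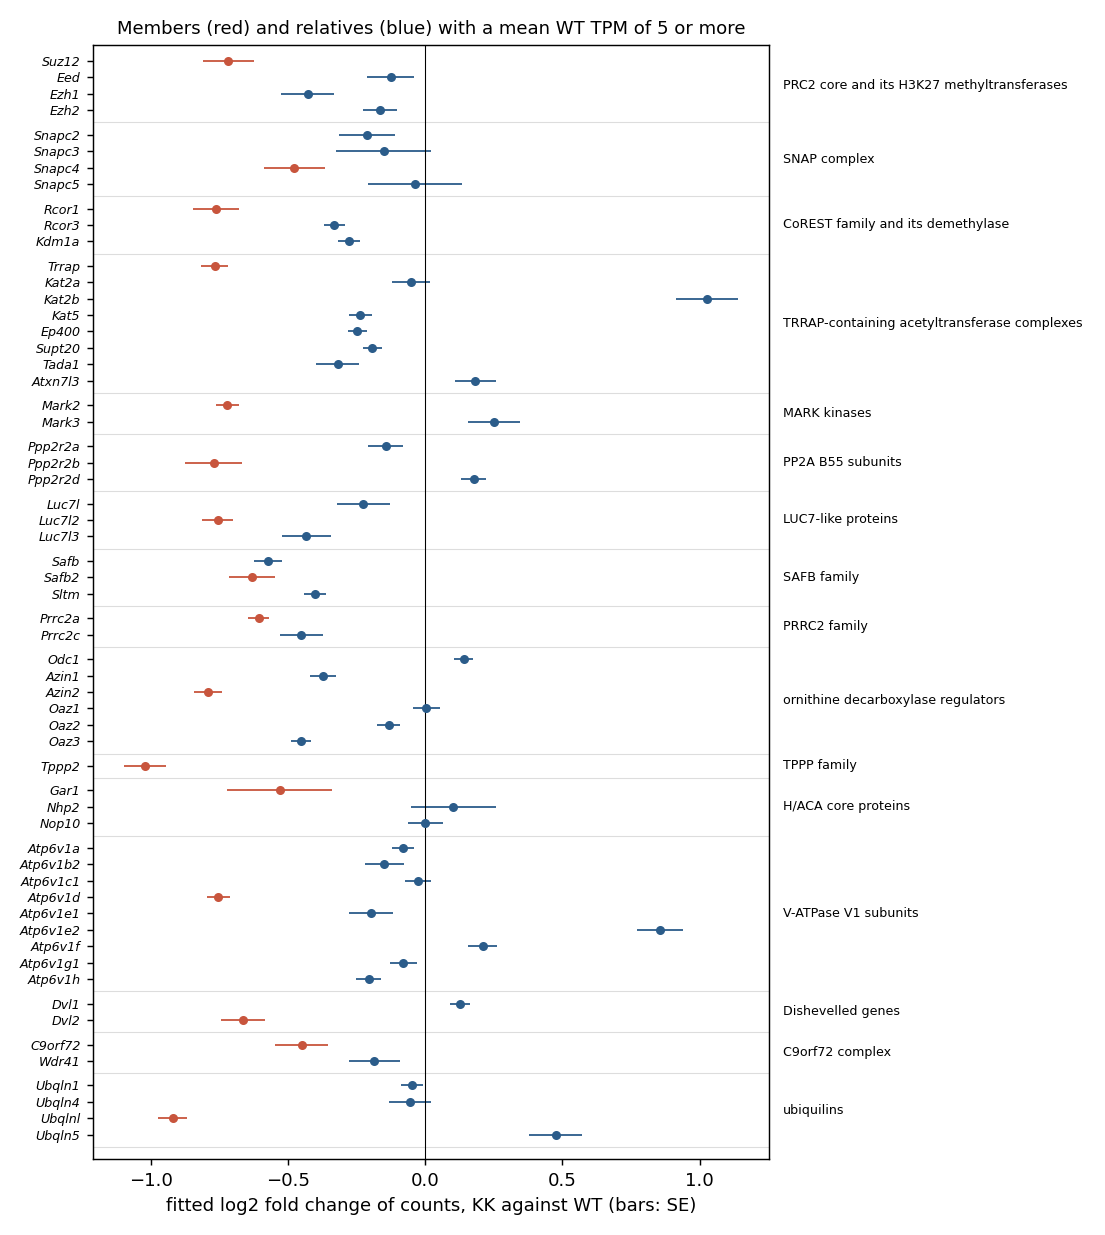
Fitted log2 fold change of counts, KK against WT, with its SE, for members (red) and relatives (blue) that are reported here and have a mean WT level of at least 5 TPM, grouped by family. Members sit at the left of their family because of how they were chosen; relatives lie on both sides of 0, from -0.57 for Safb to 1.03 for Kat2b.

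Lists of related genes gave the wider setting, each counted without its members in the same edgeR fit. Of 108 chromatin modifier genes tested 62 were lower and 17 higher (median log2 fold change -0.24), and the members Suz12, Trrap and Phf2 belong to this list. Among 115 splicing and RNA processing genes, which include the member Safb2 when complete, 81 were lower and 6 higher (median -0.29). The kinase and phosphatase list, home of Trrap and Mark2, had 67 lower and 26 higher of 164 (median -0.10). The spermatid and sperm list, to which Spem1 belongs, went the other way, with 21 lower and 49 higher of 94 (median 0.13). For comparison, 21.7% of all genes tested were lower and 22.0% higher. Of the abundant autosomal protein-coding genes, 37.8% were lower and 18.8% higher.

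Gene structure was not part of the rule. The leading transcript of the members had a median length of 3193 bases against 2286 for the other abundant genes, a 3′ untranslated region of 823 against 563 bases, a coding length of 1443 against 1233 bases, 8 against 9 exons, and a GC content of 50.9% against 50.5%. The interquartile range was 2008 to 4440.5 bases for the members' transcripts and 1436 to 3536 for the others, so the ranges overlapped. A single-exon leading transcript was found in 5 members (Ubqlnl, Kbtbd7, Hist2h2be, Hnrnpa0 and Atxn7l3b), which is 7.69% against 3.05% of the others. Only 1 isoform was annotated for 9 members (13.8% against 8.40%), so their TPM could not shift between isoforms. Chromosome 11 held 9 members (13.8% against 8.90% of the others), chromosome 5 held 8 (12.3% against 7.06%) and chromosome 4 held 7 (10.8% against 6.85%). Other chromosomes went the other way, among them chromosome 1 (1.54% against 5.68%), chromosome 8 (1.54% against 5.75%) and chromosome 2 (4.6% against 8.1%). Whether members cluster by chromosome was not tested.

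Overlapping genes matter for members because the kit is not stranded. Fam13c overlaps Phyhipl, which stood at 137 and 143 TPM in WT and at 173 and 174 TPM in KK, over 10 times the level of Fam13c at 10.3 and 11.6 TPM in WT and 5.96 and 6.48 TPM in KK. Dcaf1 overlaps Manf, at 199 and 175 TPM in WT and at 235 and 218 TPM in KK. Kri1 overlaps Atg4d, at 52.3 and 55.6 TPM in WT and 64.7 and 57.4 TPM in KK. Dvl2 overlaps Acadvl, at 20.8 and 19.3 TPM in WT and 23.2 and 24.5 TPM in KK. Azin2 overlaps the antisense gene Gm15904, at 3.47 and 10.4 TPM in WT and 28.9 and 21.9 TPM in KK. Arl9 overlaps the noncoding gene 1700112J05Rik, at 3.22 and 4.30 TPM in WT and 10.2 and 7.32 TPM in KK. Some other protein-coding partners did not follow this direction. Rbm15b, which also overlaps Dcaf1, had 7.22 and 7.23 TPM in WT and 5.49 and 6.43 TPM in KK. Zbtb17, which overlaps Spen, had 20.5 and 22.6 TPM in WT and 21.4 and 20.6 TPM in KK, and Haus2, which overlaps Lrrc57, had 2.96 and 2.89 TPM in WT and 2.90 and 2.76 TPM in KK.

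A promoter window from RefSeq (GRCm38.p6, 250 bases before to 50 bases after the start) was matched for 49 of the 65 members and for 5373 of the other abundant genes, and 10 motifs were searched on both strands. The RFX motif GTTGCC, printed above for Spem1, Naa40 and Mark2, was present in 15 of 49 members (30.6%), in 15.1% of the other abundant genes and in 12.5% of all 32851 windows. The members with a match were Chfr, Dvl2, Atp6v1d, Prrc2a, Naa40, Mark2, Gar1, C9orf72, Ccp110, Cdkl4, Ahdc1, Rnf144b, Spem1, Safb2 and Kbtbd7. Not every window lies at the start of the transcript with most counts: 39 of the 49 begin within 100 bases of it, while the start for Cdkl4 is 329 bases and that for Ahdc1 27987 bases away. Other motifs were close to the other abundant genes or rarer: AACNGT (MYB) in 24.5% against 22.9%, GGGCGG (GC box) in 61.2% against 62.4%, the NRF1 motif in 12.2% against 13.4%, TATAAA in 4.08% against 6.40%, CACGTG (E-box) in 10.2% against 10.8%, CCGGAAG (ETS) in 14.3% against 23.2% and the CCAAT box in 28.6% against 39.5%. The cAMP response element TGACGTCA was found in 0 of 49 windows and in 3.72% of the others, and its core TGACG, which overlaps it, in 42.9% against 35.3%. With 10 motifs looked at and no test, these shares are descriptions of letters in the windows.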

How the data were processed

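RNA-seq of mouse pachytene spermatocytes was compared between 2 WT and 2 KK libraries. Bowtie, mm10 and GRCm38 appear in the submitters' processing notes, and which quantifier and gene annotation were used is not given in the sources used here. The authors deposited, per the file headers, expected counts, effective lengths and TPM for genes and isoforms, and the percent of each gene's TPM held by each isoform. The FPKM values the authors deposited served only to compare scaling (TPM per FPKM was 1.31 in both WT libraries and 1.23 and 1.24 in KK). Gene models were GENCODE M21, which held 55104 of the 55364 identifiers.

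Members were selected on deposited TPM. Expected counts were rounded and fitted with edgeR 4.0.16 in R 4.3.3 (TMM factors, default expression filter, quasi-likelihood, Benjamini-Hochberg at 0.05); SE is the standard error of the log2 fold change. Isoform shares were tested with limma 3.58.1; DESeq2 1.42.0 was an alternative. On 3 simulated data sets of 16571 genes, 200 of them changed, the edgeR test recovered 63.3% of 1.5-fold and 77.3% of 2-fold changes. Unchanged genes made up 7.02% of its calls, above the limit of 0.05, so calls with an adjusted p close to 0.05 are uncertain. The data gave 7237 calls, far more than the 200 changed genes simulated, so the simulated rates may not hold for them. Alternatives were other scalings, tools, filters, pseudocounts, a length offset, a replicate block, leaving out each library, and other thresholds of the rule. Libraries of one genotype differed by more than sampling noise (chi-square per degree of freedom 2.84 in WT and 2.93 in KK).

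The members, lists and relatives were chosen with earlier results of these data known. Named members were the 15 with the lowest ratio, the 10 most abundant, those in a list, the 3 nearest to the threshold on either side and the 5 with the smallest p for isoform share; other members were named by role after their values were seen. Provisional symbols were named only where a result turned on them. Values of 1 member and 1 relative are not reported here; both stay in the fits and counts. Promoter windows were used for 49 members; windows of the other 16 were not used here.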

Additional observations from a re-analysis of the deposited data

How the results depend on the processing

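The number of genes that met the rule depended on its limits: it was 85 at 5 TPM and 46 at 20 TPM, 26 at a ratio of 0.60 and 159 at a ratio of 0.70, against 65. Leaving out 1 library, which relaxes the rule, gave 118 (without KK replicate 1) to 147 (without WT replicate 1), always with all 65 members inside. With TMM-scaled CPM in place of TPM, 77 genes met the rule and 47 of the 65 members remained. In 2 alternatives chosen after seeing the data, TPM was summed over isoforms of at least 500 bases or over isoforms with at least 5 counts. Each gave 64 genes and kept 61 members, and both lost 4930469K13Rik, Dcaf1 and Gpn1. The limit on length also lost Muc1, and the limit on counts also lost C9orf72. The members' median log2 fold change, -0.76, was -0.67 with library size only, -0.78 with limma on log2(TPM + 0.1) and -0.78 with a length offset, and from -0.77 to -0.72 on leaving out 1 library. Dcaf1 changed sign with library size only, to 0.0036. Of 845 recomputed values of members over 13 settings, the other 844 were lower in KK. The members were chosen as lower in these same libraries, so nothing is read from that count. Genes lower in KK numbered 1551 by limma on log2(TPM + 1), 1549 with a pseudocount of 0.1 and 2075 with the length offset, against 3589. The DESeq2 test called 4969 genes against 7237, of which 2564 were lower, and 60 of the 65 members were lower. With library size only, 4521 of 7037 calls were higher, against 3648 of 7237. Among the abundant genes, library size only gave 1810 lower and 1842 higher against 2571 and 1280, and limma on log2(TPM + 1) called 19.3% lower against 37.8%. The cause of these shifts was not tested.

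WT and KK libraries share replicate numbers, but the labels do not say that a number marks a shared source, and the deviations of same-numbered libraries had a correlation of -0.058 across genes, so the libraries were not treated as pairs. With the replicate number as a block, 3634 genes and 62 members were lower, the members' median was -0.76 and 0 members were called for isoform share.

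Depth limits the isoform values: several rest on fewer than 10 counts.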
